A study of Ovis aries with 18 samples.

Results

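A set of 131 genes was abundant in 3 skeletal muscles of lambs and had nearly the same mean level in each. Each muscle had 6 libraries: longissimus lumborum (LL) runs along the back and loin, psoas major (PM) lies under the lumbar spine and is eaten as tenderloin, and soleus (SOL) is a small calf muscle that helps to hold posture. Members were chosen from the measured levels: the mean of the 3 muscle means was at least 100 FPKM (reads per kilobase of gene and per 1000000 reads counted), and the largest muscle mean was at most 25% above the smallest. Of 20477 genes in the table, 670 reached 100 FPKM, and 131 of these (19.6%) were even by this rule, leaving 539 abundant genes that were not. All animals were lambs, sampled on the left side of the carcass, and the labels name no breed, sex, exact age or treatment.

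Skeletal muscles differ mainly in their mix of slow and fast fibres. Slow fibres rely on oxidative metabolism and sustain posture, while fast fibres rely more on glycolysis and contract quickly. Genes for tasks that every fibre carries out, such as protein synthesis, are commonly held at similar levels across muscles, and genes of this kind are used as references when expression is compared between tissues. The genes are listed as Ensembl sheep gene identifiers without names, and 0 of them were found in the RefSeq gene table used. Members are therefore described without function, position or sequence, and markers of fibre type or of other cell types were not analysed here. The labels describe a selection of long noncoding transcripts of at least 200 bp. The shortest member was below that limit, at 114 bp by the gene length recovered from its values. Whether the selection shaped the list of genes, or whether any member is noncoding, cannot be told here.

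Library totals ranged from 10216739 to 14747118 reads. Between 12704 and 14552 genes were detected per LL library, 14647 to 14942 per PM library and 14181 to 15421 per SOL library. LL 3 and SOL 5 had the fewest in their muscles. SOL 3 held reads of 11 genes at a median of 3.34% of their level in LL and PM, where the remaining SOL libraries were under 1%, and 0 of these genes were members. Without LL 3, SOL 3 and SOL 5 together the rule gave 128 genes, 106 of them members. In bulk tissue, fewer cells of a type and less RNA per cell cannot be told apart, and an FPKM is a share of its library, so an even FPKM is an even share of the counted RNA.

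The members held between 7.18% and 10.2% of all reads in a library, and every member had at least 140 reads in every library. Levels were skewed. There were 91 members with a mean of 100 to 200 FPKM, 24 from 200 to 500, 9 from 500 to 1000, and 7 at 1000 or more, with a median of 150 FPKM. Gene lengths, recovered from the values, ran from 114 bp (ENSOARG00020001307, 123 to 266 FPKM over 18 libraries) to 13103 bp (ENSOARG00020017786, 61.7 to 168 FPKM), with a median of 1089 bp against 1177 bp in the other abundant genes. Of the members, 16 (12.2%) were shorter than 500 bp, compared with 43 (7.98%) of the others.

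The most abundant member, ENSOARG00020019932 (1170 bp), stood far above the rest and had the highest mean of all genes tested. Its level in LL was 20975 FPKM at the lowest, 27081 at the median and 33194 at the highest. The lowest, median and highest values were 18195, 23587 and 31815 FPKM in PM, and 19805, 21309 and 26584 FPKM in SOL. The 3 ranges overlapped, with means of 26862 ± 4986, 23939 ± 4708 and 22631 ± 2970 FPKM (SD, n = 6 each). This gene alone took 2.13% to 3.88% of the reads of a library, and the other 130 members together took 4.77% to 6.32%.

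The next members were about an order of magnitude lower. For ENSOARG00020014689 (539 bp) the lowest, median and highest values were 1473, 1690 and 2088 FPKM in LL, 1268, 1387 and 1799 in PM, and 1660, 1685 and 2224 in SOL. The PM libraries lay mostly below the others, with a mean of 1452 ± 208 FPKM against 1748 ± 232 for LL and 1808 ± 229 for SOL (SD, n = 6 each). The gene lay close to the limit of the rule, with a ratio of largest to smallest muscle mean of 1.245. ENSOARG00020003758 (1533 bp) was more even, with a ratio of 1.09 and means of 1636 ± 290, 1608 ± 194 and 1751 ± 263 FPKM in the same order. Its libraries overlapped almost completely: LL spanned 1285 to 1991 FPKM, PM 1391 to 1875 and SOL 1413 to 2103.

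**Figure D1:**
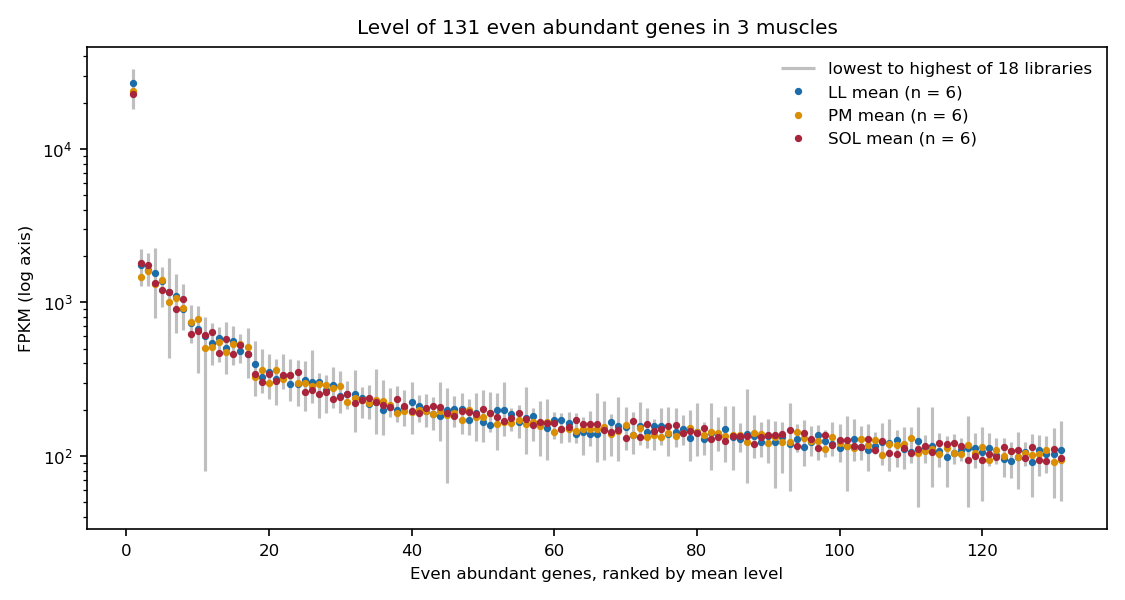
Level of each even abundant gene in FPKM on a log axis, ranked by mean. Points are the means of 6 libraries of each muscle and grey bars run from the lowest to the highest of the 18 libraries; 1 gene lies at 24477 FPKM, and 91 lie between 100 and 200 FPKM.

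Each muscle led in some members. LL had the highest of the 3 means in 48 members, SOL in 48 and PM in 35, and the lowest mean fell in LL for 36, in PM for 51 and in SOL for 44. The ratio of largest to smallest mean had a median of 1.16, and the largest mean was at most 10% above the smallest in 28 members and at most 5% above in 8. At the limit of 25%, the last member inside was ENSOARG00020008621, at a ratio of 1.246 with means of 583, 551 and 468 FPKM in LL, PM and SOL. The first gene outside, ENSOARG00020020875, had a ratio of 1.251 and means of 192, 181 and 154 FPKM. At the floor of 100 FPKM, ENSOARG00020025559 lay just inside with 100.2 FPKM, and ENSOARG00020012816, with 99.2 FPKM and a ratio of 1.21, just outside.

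How tightly evenness was measured differed from gene to gene. Differences between muscles and their 95% intervals were taken from limma on log2(FPKM + 0.1), fitted to the 15434 genes whose mean level reached 0.1 FPKM. Since the rule used the muscle means, these values describe the members and test nothing about them. The median standard error of a difference was 0.13 on the log2 scale. All 3 intervals stayed within a fold of 2 for 129 of 131 members and within a fold of 1.5 for 102 (77.9%). They stayed within a difference of 25% of the lower level, the limit of the rule, for 3 (2.29%). For the other 128, at least 1 interval held differences larger than the rule allows for the means. These intervals take no account of the replicate number; with it as a block, 111 members stayed within a fold of 1.5 and 5 within the 25% limit.

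Without the block, the 2 members whose intervals reached beyond a fold of 2 were ENSOARG00020019932 and ENSOARG00020018336. For ENSOARG00020019932, SOL against LL gave a log2 fold change of -0.24 with an interval of -1.08 to 0.60. Its standard error of 0.40 includes the variance that limma's trend sets for genes of its level, and its own SD between libraries of a muscle was 0.25 on the log2 scale. For ENSOARG00020018336 the log2 fold change of SOL against PM was 0.42 with an interval of -0.58 to 1.41, and 1 library of each muscle lay far below the rest. Those 3 libraries have the same replicate number. PM was below both SOL and LL in all 6 pairs of libraries with the same number. With the block the interval of SOL against PM narrowed to 0.10 to 0.73, and the limma adjusted p was 0.059 in place of 0.63. For PM against LL the log2 fold change was -0.36, with a block interval of -0.68 to -0.047 (limma adjusted p with the block 0.24). SOL against LL gave 0.055.

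**Figure D2:**
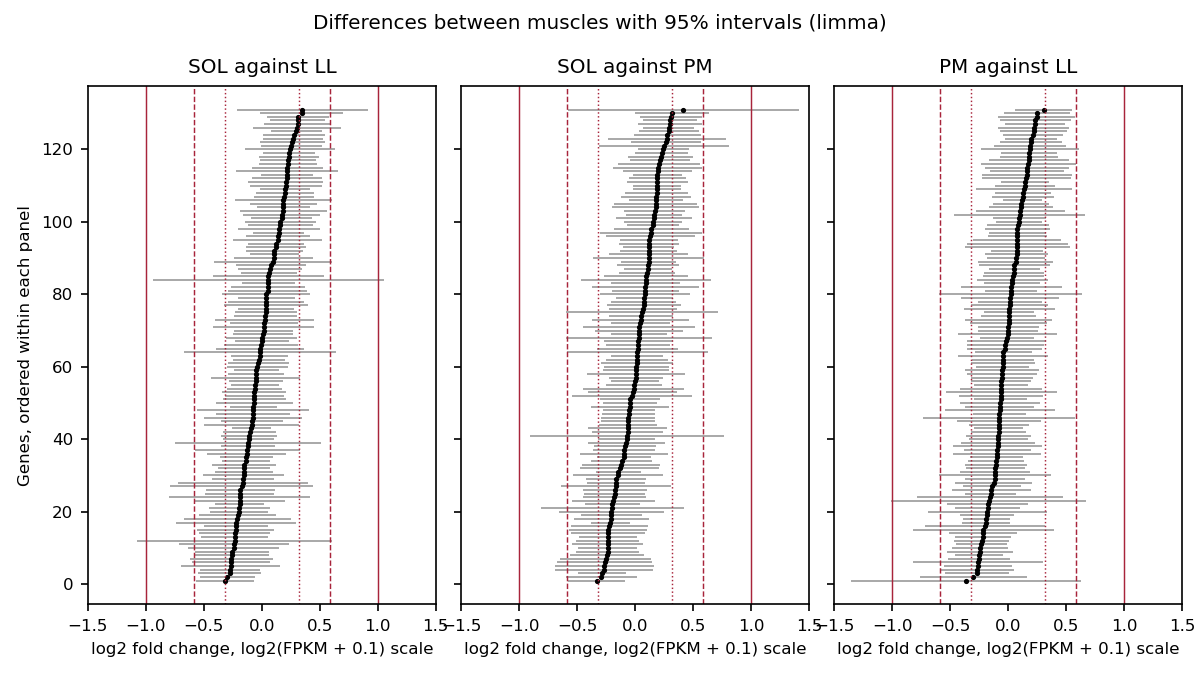
Log2 fold change of each of the 131 genes on the log2(FPKM + 0.1) scale (points) with its 95% interval from limma (bars), ordered within each comparison. Red lines mark a difference of 25% (dotted) and folds of 1.5 (dashed) and 2 (solid); the points lie mostly inside the dotted lines, while most bars cross them.

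The rule keeps genes with close muscle means, so counts of members called between muscles describe it and test nothing. In SOL against LL, 25.4% of all genes tested were called (limma, adjusted p under 0.05), and 1 of 131 members. That member, ENSOARG00020019417 (1992 bp), stood at 122 to 157 FPKM in LL (median 139) and at 148 to 191 in SOL (median 175), and the upper LL libraries overlapped the lower SOL ones. Its log2 fold change was 0.30 (SE 0.11, limma adjusted p = 0.045, n = 6 each). The call was lost when PM 1, PM 4, PM 6, SOL 1, SOL 2, SOL 3 or SOL 6 was left out, each of which left 0 members called.

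In SOL against PM 16.8% of all genes were called, and in PM against LL 1.48%. Among members 0 were called in either comparison (limma), with 10 and 4 at an unadjusted p under 0.05, where 28.6% and 12.7% of all genes were. In SOL against LL, 11 members had an unadjusted p under 0.05, against 37.3% of all genes. For any difference among the 3 muscles, 23.4% of all genes and 0 members were called, and at an unadjusted p under 0.05 there were 35.2% of all genes and 9 members. With the replicate number as a block, 4 members were called in SOL against LL, where 29.4% of all genes were, and 2 in SOL against PM, where 19.8% were. ENSOARG00020023382, picked out after its values were seen, was in both counts (limma adjusted p with the block 0.019 and 0.029). Its mean was 168 ± 14.1 FPKM in SOL, against 137 ± 22.3 for LL and 137 ± 14.5 for PM (SD, n = 6 each). Of the other members called with the block in SOL against LL, ENSOARG00020008621 was lower in SOL (log2 fold change -0.32, limma adjusted p with the block 0.039). ENSOARG00020018391 and ENSOARG00020019417 were higher in SOL.

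The smallest spread between libraries of any gene tested belonged to a member. ENSOARG00020022324 (3103 bp) ranged from 112 to 125 FPKM in LL (median 114), from 116 to 142 in PM (median 125) and from 103 to 114 in SOL (median 109). Its highest library was only 1.38 times its lowest, and its pooled within-muscle SD was 0.082 on the log2 scale. Because it varied so little, its SOL and PM libraries did not overlap, although their means differed by only a log2 fold change of -0.21 (limma adjusted p = 0.078). Libraries of SOL and PM did not overlap for 10.5% of all genes, and this was the only such member. Libraries of PM and LL did not overlap for 1.33% of all genes and for 1 member, ENSOARG00020000869 (468 bp, picked out after its values were seen), at 234 to 333 FPKM in PM and 337 to 367 in LL. Between SOL and LL 11.4% of all genes and 0 members had no overlap. The next smallest spreads were those of ENSOARG00020023958 and ENSOARG00020009127, with SDs of 0.13 each and levels of 87.9 to 130 FPKM and 144 to 206 FPKM over all 18 libraries.

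Spread within a muscle differed widely among members. The pooled within-muscle SD had a median of 0.23 on the log2 scale and ran from 0.082 to 0.95. The median was 0.28 in the other abundant genes and 0.49 over all genes tested. The rule favours genes whose means stray little, so the difference in spread from other genes was not tested. Counting error alone would give a median SD of 0.029 in members, and the observed SD exceeded it in every member, by at least 2.86 times. The highest of the 18 libraries was at least 1.5 times the lowest in 126 members, at least 2 times in 50 and at least 3 times in 11. After ENSOARG00020018336 and ENSOARG00020014604, both described with the replicate numbers, the widest spread was that of ENSOARG00020003888 (5411 bp), with an SD of 0.58 on the log2 scale. It spanned 46.2 to 161 FPKM in LL (median 114), 56.0 to 181 in PM (median 119) and 75.2 to 124 in SOL (median 91.8), so the muscles overlapped and SOL varied least.

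LL was the most variable muscle for most members. The SD had a median of 0.26 in LL, 0.21 in PM and 0.20 in SOL on the log2 scale. LL had the largest of the 3 SDs in 72 members (55.0%), PM in 33 and SOL in 26. The share for LL was 49.9% in the other abundant genes and 59.7% over all genes tested, so LL led in each set. LL 3 had the largest median absolute deviation of the members of all 18 libraries, 0.23 on the log2 scale against 0.11 to 0.20 in the others.

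**Figure D3:**
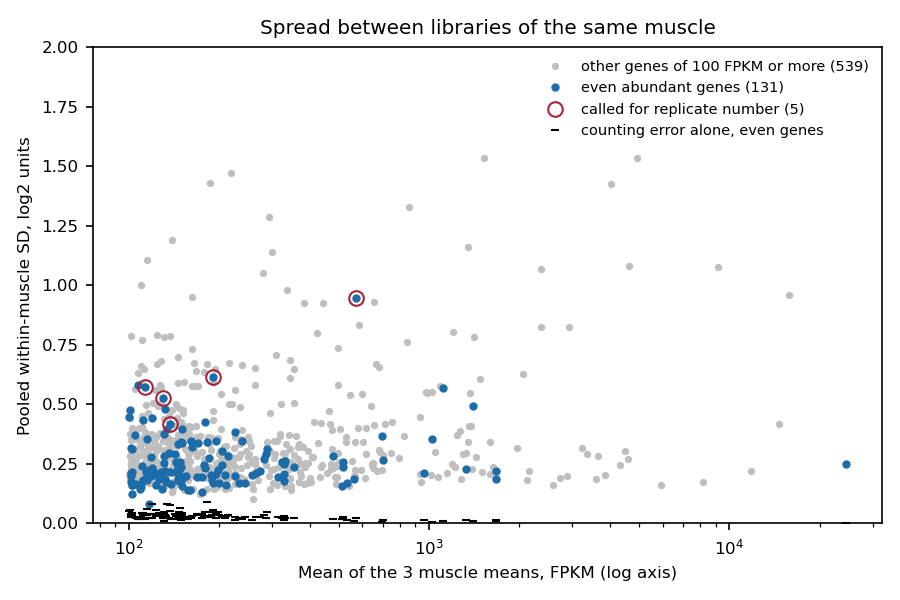
Pooled SD between libraries of the same muscle (log2 units) against the mean level in FPKM (log axis) for the 131 even abundant genes (blue) and the 539 other abundant genes (grey). Black dashes give the SD that counting error alone would leave in the even genes, all under 0.1, and red rings mark the 5 genes called for replicate number, at 0.42 to 0.95.

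The rule used the muscle means and not the deviations of libraries around them, which include differences by replicate number. Libraries are numbered 1 to 6 in each muscle, and the 3 muscles were taken from each carcass, but the labels do not tie a number to a carcass. Libraries of different muscles with the same number deviated together over all genes tested. Their correlations, across 15434 genes that are not independent, were 0.13 to 0.23 for PM and SOL, 0.090 to 0.18 for LL and PM and 0.086 to 0.19 for LL and SOL. Correlations between different numbers ran from -0.11 to 0.052. Deviations were taken from the mean of each muscle's own 6 libraries. Positive correlations within a number therefore push those between different numbers below 0, and part of the contrast is built in.

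Some members with close muscle means differed by number. In limma's F-test of the number, fitted with muscle as a term, 292 of 15434 genes (1.89%) were called at an adjusted p under 0.05. The 5 members called were 3.82% of 131, near the 4.27% called among the other abundant genes. At an unadjusted p under 0.05 there were 34 members (26%), against 29.1% of the other abundant genes and 16.4% of all genes. The share of within-muscle variance that lay between numbers had a median of 47.4% in members, 49.1% in the other abundant genes and 40.7% over all genes. Libraries unrelated by number would give 33.3%.

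ENSOARG00020018336 (634 bp) had the strongest such pattern and the largest spread of all members. In LL the level was 717, 692, 571, 749, 158 and 746 FPKM in libraries 1 to 6. In PM the values were 600, 606, 551, 579, 79.1 and 605 FPKM, and in SOL 694, 738, 610, 802, 208 and 606. Library 5 was the lowest in all 3 muscles by a wide margin. It lay 4.53-fold below the median of the other 5 in LL, 7.59-fold in PM and 3.34-fold in SOL. The number accounted for 94.9% of the variance within muscles (limma adjusted p = 1.7e-05), and the test ranked 22nd of all genes tested. The adjusted p stayed between 1.44e-05 and 0.000426 over 24 alternatives, which included leaving out each library.

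ENSOARG00020018391 (2532 bp) was highest in library 2 of every muscle. Libraries 1 to 6 stood at 87.1, 200, 58.6, 125, 161 and 87.6 FPKM in LL, at 91.9, 202, 101, 116, 143 and 87.1 in PM, and at 106, 221, 118, 161, 171 and 101 in SOL. Library 5 came second in each muscle, so the order of the upper libraries was shared. The limma adjusted p for the number was 0.0012, and 90.2% of the within-muscle variance lay between numbers. With the block this gene was also called in SOL against LL (log2 fold change 0.35, limma adjusted p = 0.037 with the block and 0.37 without it).

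ENSOARG00020014604 (351 bp) was highest in library 2 and lowest in library 3 of every muscle. Library 3 held 66.6 FPKM in LL, 106 in PM and 103 in SOL. Library 2 held 253, 277 and 252 FPKM. The means of the 3 muscles were 199 ± 71.4, 184 ± 67.5 and 190 ± 63.1 FPKM (SD, n = 6 each), so a gene with a ratio of 1.08 between muscles varied up to 4.16-fold between libraries (limma adjusted p for the number 0.0018).

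The remaining calls, named like all 5 because of their small count and after their values were seen, were ENSOARG00020013189 and ENSOARG00020005667. ENSOARG00020013189 (3632 bp) was lowest in library 4 of every muscle, at 72.3, 61.6 and 46.2 FPKM in LL, PM and SOL, while its highest library was 5 in LL and PM (209 and 145) and 2 in SOL (182). Its limma adjusted p for the number was 0.0039. ENSOARG00020005667 (204 bp, 198 to 548 reads per library) was lowest in library 1 of every muscle, at 82.5, 113 and 81.1 FPKM (limma adjusted p = 0.040). It was called in only 8 of 24 alternatives, with adjusted p from 0.0131 to 0.182, whereas the other 4 were called in all 24. Without LL 2, 8 members were called for the number, and without other single libraries 4 or 5.

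**Figure D4:**
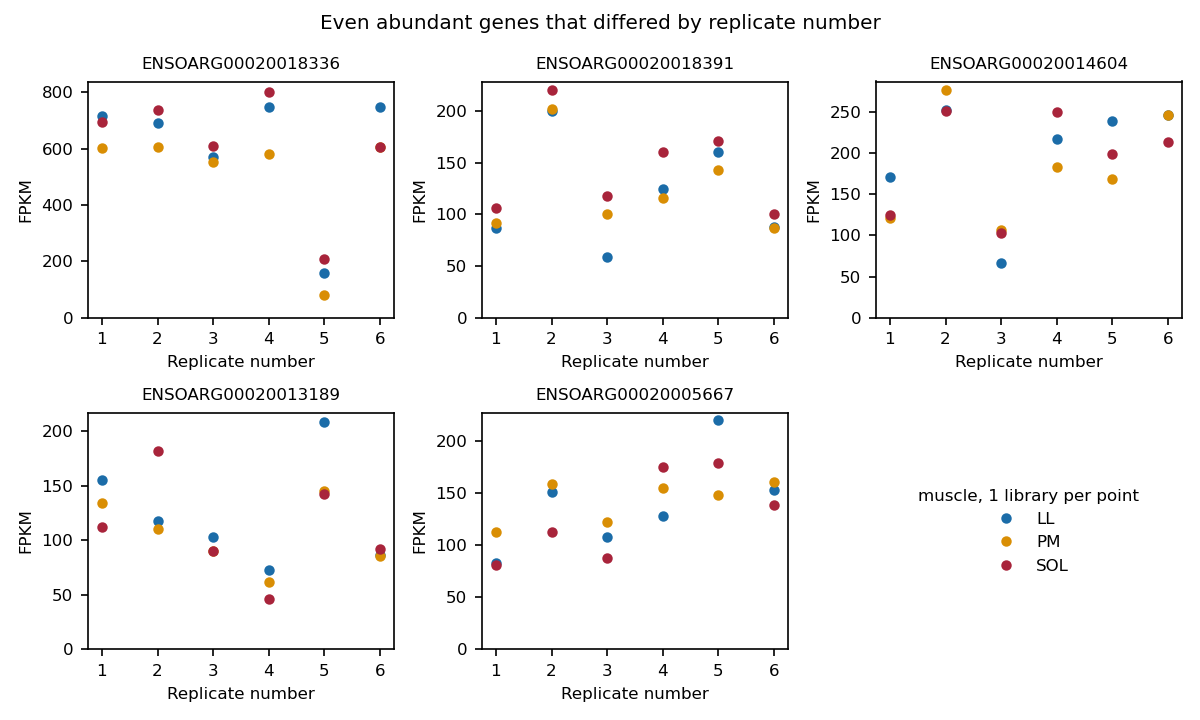
FPKM of the 5 even abundant genes called for replicate number, by number, with 1 point per library and colours for the muscles. Library 5 of each muscle falls to 79.1 to 208 FPKM in ENSOARG00020018336, where the other libraries lie at 551 FPKM or more.

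The same number was lowest, or the same number was highest, in all 3 muscles for 23 members (17.6%). The share was near that in the other abundant genes (16.0%) and in all genes with reads in every library (13.1%), so it says nothing particular to the members. The numbers with the largest counts among members were 4 and 2. Number 4 was lowest in all 3 muscles for 5 members (3.82%), against 1.12% of the other abundant genes and 1.30% of all genes with reads in every library. Number 2 was highest for 4 members (3.05%), against 1.86% and 2.64%. These differences were not tested. At the other end, ENSOARG00020014618 had the largest p for the number (limma adjusted p = 0.97), with its highest library being LL 3 at 486 FPKM among LL libraries of 224 to 318. ENSOARG00020024169 came next (limma adjusted p = 0.97), at 98.2 to 148 FPKM over all 18 libraries.

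Members did not vary as one block. The first principal component of their deviations from the muscle means held 21.5% of the variance, and the second 15.3%. On the first, 77 members loaded in one direction and 54 in the other. There were 30 members that correlated above 0.5 with it and 13 below -0.5, over 18 libraries that share these genes. The component was drawn from these same members, so such correlations are partly built in. Scores of the 3 libraries with the same number lay near each other for some numbers, at 1.20 to 2.37 for number 5, -1.56 to -1.02 for number 1 and 0.35 to 0.60 for number 4. The extremes were 2 LL libraries, LL 2 at 2.59 and LL 3 at -2.96, whose PM and SOL counterparts stood between -0.73 and 0.022. Without ENSOARG00020018336 the first component held 22.1%. The 3 scores of number 5 then ran from 0.30 to 1.77, so their distance from the other numbers rested in part on that gene.

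**Figure D5:**
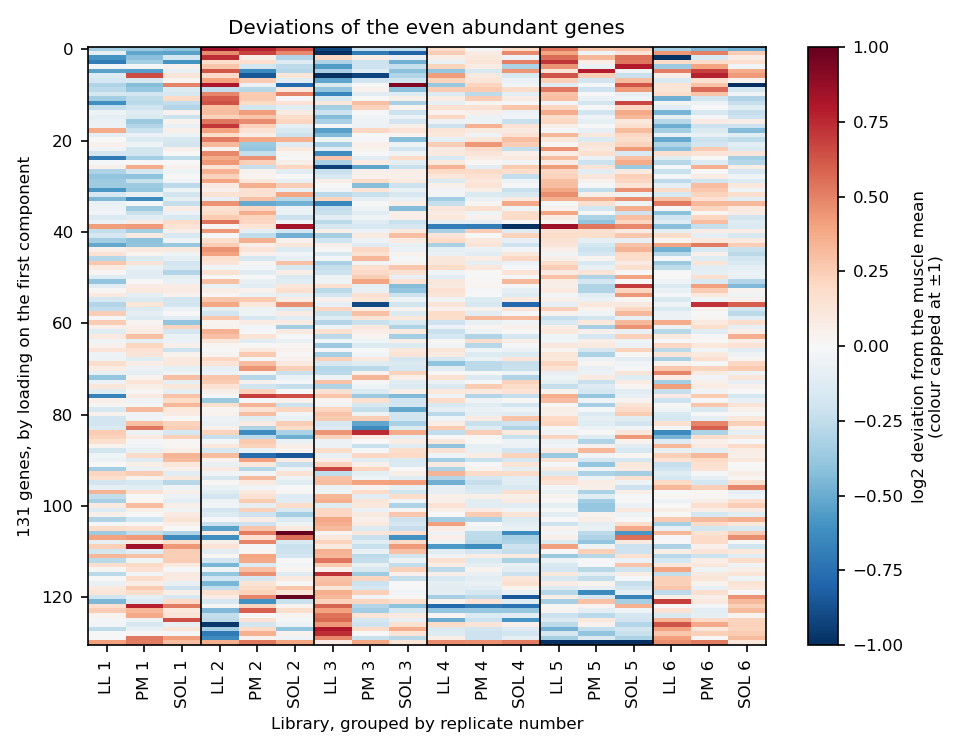
Deviation of each of the 131 genes from its muscle mean (colour, log2 units, capped at ±1) in the 18 libraries, grouped by replicate number, with genes ordered by loading on the first component. LL 2 and LL 3 show opposite patterns, and the bottom row, ENSOARG00020018336, is low in all 3 libraries numbered 5.

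The median deviation of the 131 genes from their muscle means lay between -0.071 and 0.097 on the log2 scale over the 18 libraries, near the range of -0.093 to 0.10 for the other abundant genes. Members that were higher and members that were lower in a library offset each other in this median. Evenness also depended on how libraries are scaled. As deposited, the median log2 fold change of SOL against LL was -0.010 in members and 0.24 over all genes tested. Median-ratio scaling, which sets libraries equal at the typical gene, moved these to -0.13 and 0.12. For SOL against PM it moved the member median from 0.024 to -0.10 and that of all genes from 0.15 to 0.034. After that scaling the rule picked 130 genes, of which 100 were among the 131 members.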

How the data were processed

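RNA of 18 libraries (6 per muscle, grouped by title) was measured. Per the labels' protocols, ribosomal RNA was depleted, reads were aligned with HISAT2 (2.2.1) and transcripts assembled with StringTie (2.2.0). DESeq appears in the submitters' processing notes, with no step attached. The build, annotation, counter and strandedness: not given in the sources used here. No unit stands in the file header. The authors deposited FPKM, since values of 13990 genes with reads in 12 or more libraries resolved within 0.05 into whole reads, a whole gene length and 1 total per library.

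The 15434 genes whose mean reached 0.1 FPKM were put on the log2(FPKM + 0.1) scale and fitted in limma (3.58.1; R 4.3.3), using a variance trend and Benjamini-Hochberg adjustment over all of them, in 1 model with muscle (15 residual degrees of freedom) and 1 with muscle and replicate number (10). The planned test already assumed FPKM. Both the recovery of reads and the fits were tested on simulated data. Alternatives were another pseudocount or filter, median-ratio scaling, the replicate block, other limits of the rule and leaving out libraries.

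Same-numbered PM and SOL libraries all correlated above 0.1 in their deviations, while LL did not reach this with PM or SOL for every number. The main muscle model used no pairing. The replicate block and the model with replicate number applied the numbers to every muscle, LL included. The labels do not say which libraries share an animal, so a p-value reflects spread among libraries, which may be technical. Named were members highest in mean, lowest and highest in spread and in p for the number, called between muscles, longest, shortest and at the thresholds. The members and lists were chosen with earlier results of these data known; lists by gene symbol could not be applied.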

Additional observations from a re-analysis of the deposited data

Results flagged for a closer look

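Within each muscle, the highest and lowest of the 6 libraries were set against the rest by Dixon's criterion, for the named members and for summary measures of the libraries. A library stood apart in 9 of 72 sets, where chance gives about 1 in 20, or 3.6, for sets not picked by their values. Some named members were picked for a large spread or a small p for the number. The 9 sets therefore cannot be read against 3.6. ENSOARG00020018336, picked for both, gave 3 of the 9, with library 5 low in each muscle: 158 FPKM in LL (next 571), 79.1 in PM (next 551) and 208 in SOL (next 606). The others were single libraries. ENSOARG00020022324 stood at 125 FPKM in LL 2 (next 116), ENSOARG00020014618 at 486 in LL 3 (next 318), ENSOARG00020019417 at 181 in PM 5 (next 142) and ENSOARG00020025559 at 140 in SOL 5 (next 100.3). The members other than ENSOARG00020019932 held 5.97% of the reads of PM 6 (next 5.39%). The median absolute deviation of the members was 0.197 in PM 2 (next 0.138), on the log2 scale. Over all members, a library stood apart in 36 of 393 sets, where chance gives about 19.6 for independent sets. Members share the same libraries and many vary together, so the 36 sets cannot be read against 19.6 either. The share over all genes was not computed.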

How the results depend on the processing

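The size of the set followed its limits: 28 genes at a ratio of at most 1.1, 308 at 1.5, 376 at a floor of 50 FPKM and 40 at 200 FPKM. It stayed at 123 to 136 when single libraries were left out, with 116 to 127 of the 131 members kept; 84 members were kept in all 18 cases. Medians in place of means gave 126 genes, 107 of them members. Members called for the number were 4 to 8 without single libraries (8 without LL 2) and 4 or 5 under the other alternatives. All genes called for it were 211 to 357 without single libraries.

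Members called in SOL against LL (1) became 2 with a pseudocount of 0.01, 3 with a filter of 1 FPKM, 4 after median-ratio scaling, 4 with the replicate block, 3 without LL 3, SOL 3 and SOL 5 together (chosen after seeing the data), and 0 to 5 without single libraries (5 without LL 2, 3 without SOL 4 or SOL 5, 2 without LL 1 or LL 3). For SOL against PM (0) they became 4 after scaling, 2 with the block, 2 without those 3 libraries and 0 to 2 without single ones (2 without LL 6 or SOL 3, 1 without LL 3, LL 4, PM 2, PM 5 or SOL 6). For any difference among muscles (0) they became 3 after scaling, 2 with the block and 0 to 2 without single libraries (2 without LL 6, 1 without PM 5 or SOL 6). PM against LL stayed at 0 throughout. The causes of these changes were not tested. With the block, 29.4% of all genes were called in SOL against LL, 19.8% in SOL against PM and 2.69% in PM against LL. For the other settings, and for any difference among muscles, the share of all genes was not computed. Those counts of members therefore cannot be set against a change in the whole table. With the block, all 3 intervals stayed within the 25% limit for 5 members, in place of 3. Members had at least 140 reads in each library, and their spread exceeded counting error. Without the block, intervals went past the 25% limit for 128 members.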

Other observations

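In the member with the closest means the SDs of the muscles were less alike. This gene, ENSOARG00020014946 (837 bp, picked out after its values were seen), stood at 143 FPKM in LL, 142 in PM and 141 in SOL, a ratio of 1.01. Its SD was 12.5 FPKM in LL, 24.8 in PM and 44.3 in SOL (n = 6 each). The spread was not tested between muscles. The next closest, ENSOARG00020019006 (757 bp), stood at 209 ± 15.6, 213 ± 16.4 and 208 ± 35.9 FPKM in the same order (SD, n = 6 each).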
